A study of Mus musculus with 2 samples.

Results

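The glutamate transporters Slc1a1, Slc1a2 and Slc1a3, glutamine synthetase (Glul), the water channel Aqp4 and the connexins Gja1 and Gjb6 were followed across the cell classes of the adult mouse hippocampus and of the embryonic mouse brain. These 7 genes were taken by symbol from the 32285 genes of each table, and each symbol matched 1 row in both tables. Their levels were read in adult astrocytes and neurons, in adult droplets poor in the nuclear transcript Malat1, and in radial glia of the embryo.

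Glutamate released at synapses is cleared by sodium-driven transporters of the Slc1 family. GLT-1, encoded by Slc1a2, and GLAST, encoded by Slc1a3, are the transporters best known from astrocytes, while EAAC1, encoded by Slc1a1, is best known from neurons. Inside the astrocyte, glutamine synthetase turns glutamate into glutamine, which is handed back to neurons. Aquaporin 4 sits in astrocyte endfeet on blood vessels, and the connexins Gja1 and Gjb6 form the gap junctions that couple astrocytes into a network. Slc1a3 is also a long-used marker of radial glia, the stem cells of the embryonic brain.

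The nuclei came from Slide-tags, a method in which nuclei within a frozen section take up DNA barcodes from a bead array before droplet-based single-nucleus RNA sequencing (snRNA-seq). The adult hippocampus was from male C57BL/6J mice aged 56 days, and the embryonic tissue was the brain within a sagittal section of a whole C57BL/6J embryo at embryonic day 14 (E14), bought frozen. The labels and methods name no engineered allele and no treatment for either tissue. Each tissue had 1 library, so no difference below has a replicate check and none was tested. Depth came to 15346746 unique molecular identifiers (UMIs) over 1609 adult droplets, with a median of 6607, and to 58923882 UMIs over 9036 E14 nuclei, with a median of 4204. The libraries shared 1 barcode string.

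The stretches upstream of the 3 transporter genes are shown because Slc1a1 was distributed over the adult classes unlike Slc1a2 and Slc1a3, as described below. Each runs 5′ to 3′ on the strand of its gene, in RefSeq build GRCm38.p6, and ends before the next annotated exon, with CG dinucleotides in capitals. Slc1a1 is at chr19:28834885-28835048 on the plus strand, Slc1a2 at chr2:102706188-102706355 on the plus strand and Slc1a3 at chr15:8710808-8711057 on the minus strand. The Slc1a2 stretch lies 47.8 kb inside the gene as GENCODE draws it, at a RefSeq start site downstream of the first GENCODE start.
Slc1a1: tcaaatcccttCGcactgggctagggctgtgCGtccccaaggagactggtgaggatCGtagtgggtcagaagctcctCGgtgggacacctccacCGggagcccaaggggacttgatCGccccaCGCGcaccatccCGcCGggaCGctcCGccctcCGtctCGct
Slc1a2: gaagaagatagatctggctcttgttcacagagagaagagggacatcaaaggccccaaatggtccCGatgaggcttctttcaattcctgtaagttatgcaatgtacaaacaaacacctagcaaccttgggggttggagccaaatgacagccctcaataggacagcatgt
Slc1a3: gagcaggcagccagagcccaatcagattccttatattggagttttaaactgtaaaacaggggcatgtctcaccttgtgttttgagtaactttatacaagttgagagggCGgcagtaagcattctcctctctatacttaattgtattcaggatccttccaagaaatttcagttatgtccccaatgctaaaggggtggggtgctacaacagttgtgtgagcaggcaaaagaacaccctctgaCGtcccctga
These stretches hold 14, 1 and 2 CG dinucleotides in 164, 168 and 250 bases. Over the full 250 bases before the RefSeq start, the count was 27 for Slc1a1, a number matched or passed by 8.56% of the 32851 promoters in the table. It was 1 for Slc1a2, counted only at the internal start named above, and 2 for Slc1a3, against a median of 6 over all promoters. Glul had 15, Gja1 6 and Gjb6 5 in the same window, and 6 of the 7 genes had a promoter in the table. The GC box GGGCGG, searched on both strands, was found once each in the windows of Slc1a1, Slc1a3 and Glul and occurs in 32.7% of all promoters. The letters TATAAA, searched the same way, were found in the Slc1a3 window alone among the 6 genes and occur in 12.4% of promoters. A match is a description of the letters and not a binding site.

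Cell classes came from clustering, and a class is called "-like" because its name rests on lists of 8 marker genes that hold none of the 7 genes. The 7 genes were also kept out of the genes used for clustering. The adult droplets comprised 124 astrocyte-like nuclei with a median of 5761 UMIs and 788 neuron-like nuclei in 6 classes with a median of 13580 UMIs. All 8 astrocyte markers were detected in the astrocyte-like nuclei, where they summed to 8837 UMIs per 1000000 (counts per 1000000 UMIs of a class, CPM) against 200.2 in the neuron-like nuclei. Gpc5 made up 5545 and 164 of these sums. Detected here means any UMI in the class, while the naming rule counted 8, 7 and 6 markers in the clusters of this class. The contrast follows in part from the naming, which used these markers. A level is the CPM of a gene summed over a class, with an exact Poisson 95% interval. Ratios of levels and shares of nuclei have exact binomial (Clopper-Pearson) 95% intervals, and all intervals cover counting error only. A gene was compared where both sides together had at least 20 UMIs, and it was called higher or lower where the levels differed at least 2-fold. A class with 0 UMIs is given the limit that 3 counts would set.

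In the adult hippocampus 6 of the 7 genes were called higher in astrocyte-like than in neuron-like nuclei, a call made for 19.3% of the 15406 genes compared. The remaining gene, Slc1a1, was called lower, as were 15.9% of the genes. The median ratio of the 7 genes was 92.4, against 1.08 over all genes compared. Among the glial genes the ratio ran from 33.1 for Slc1a2 (95% interval 31.6 to 34.6) over 41.0 for Glul, 92.4 for Slc1a3, 104 for Aqp4 and 165 for Gjb6 to 243 for Gja1 (180 to 336). For Slc1a1 it was 0.294 (0.210 to 0.400).

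**Figure D1:**
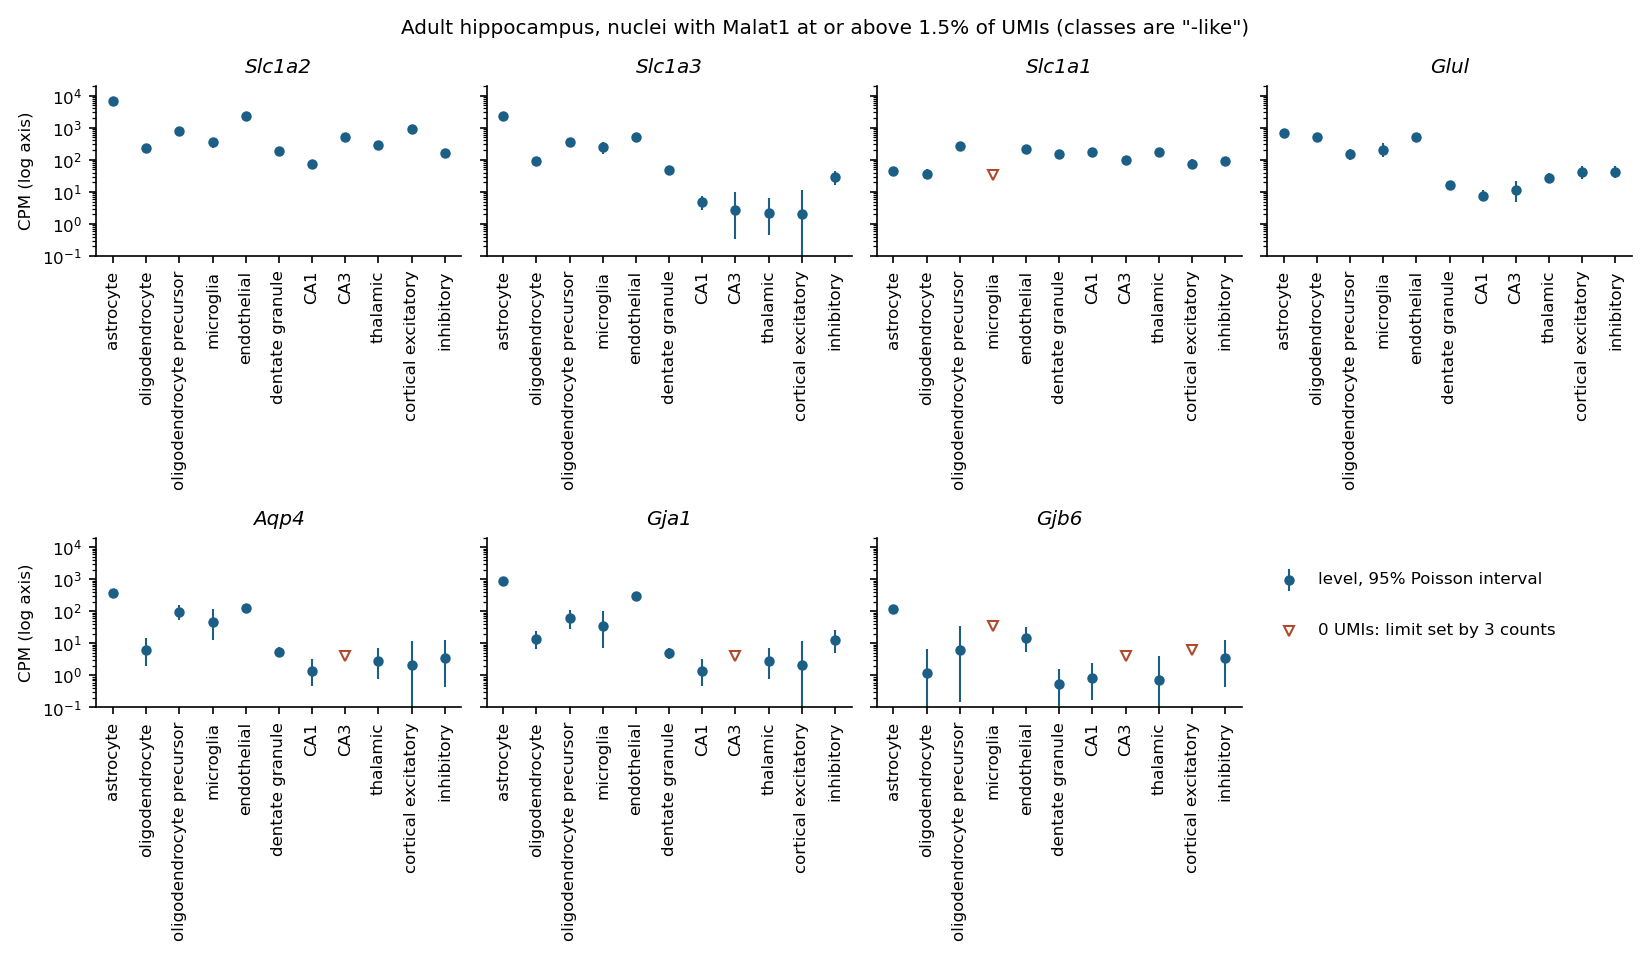
Level of each gene in CPM (UMIs per 1000000 UMIs of the class, vertical log axis) in the 11 named classes of the adult hippocampus (horizontal axis), as points with exact Poisson 95% intervals; open triangles mark classes with 0 UMIs at the limit that 3 counts set. The astrocyte-like class holds the highest point in 6 panels, whereas in the Slc1a1 panel it lies at 45.4, under every neuronal class.

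Slc1a2, which spans chr2:102658659-102790784 on the plus strand of GRCm38 (132.1 kb, 90.1% of it intronic), was present in every astrocyte-like nucleus and at a far lower level in neuron-like nuclei. The level was 6952 CPM (6781 to 7126) in astrocyte-like nuclei and 210 (202 to 218) in neuron-like nuclei. All 124 astrocyte-like nuclei had at least 1 Slc1a2 UMI (97.1% to 100%), with a median of 33 and a highest count of 207. Slc1a2 also had a UMI in 568 of 788 neuron-like nuclei (72.1%, 68.8 to 75.2), a share taken at a greater depth. After each nucleus was thinned to 500 UMIs, which left none out, the shares were 87.1% of astrocyte-like (79.9 to 92.4) and 10.7% of neuron-like nuclei (8.59 to 13.0). For comparison, the thinned share was 5.93% in oligodendrocyte-like nuclei, which had a median of 3062 UMIs, and the share before thinning was 21.2%. The oligodendrocyte-like level, 229 CPM (197 to 264), did not differ from that of the pooled neuron-like nuclei beyond counting error, at a ratio of 1.09 (0.934 to 1.26). Of the 188 oligodendrocyte-like UMIs, however, 58 were in 1 nucleus, which these intervals do not cover. The pooled neuronal level is therefore read neither as expression nor as its absence.

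The neuronal classes were far from alike in Slc1a2, and the cortical excitatory-, CA3- and thalamic-like classes lay above the oligodendrocyte-like level. Cortical excitatory-like nuclei held 901 CPM (818 to 990), and all 29 of them had a UMI, with a median of 16. CA3-like nuclei held 501 (451 to 556), thalamic-like nuclei 290, which was 1.27-fold the oligodendrocyte-like level (1.06 to 1.51), dentate granule-like nuclei 185, inhibitory-like nuclei 167 and CA1-like nuclei 73.7 (65.0 to 83.2). The level was thus 12.2-fold higher in the cortical excitatory-like (10.5 to 14.3) and 6.80-fold higher in the CA3-like nuclei (5.78 to 8.01) than in the CA1-like nuclei, at median depths of 14952, 18861 and 18644 UMIs. Thinned to 500 UMIs, 37.9%, 23.5% and 2.15% of these nuclei kept a Slc1a2 UMI. The astrocyte markers summed to 66.7 CPM in the cortical excitatory-like, 43.2 in the CA3-like and 471 in the CA1-like nuclei, where 7, 5 and 8 of the 8 markers were detected. In the CA1-like nuclei, however, 1574 of the 1667 marker UMIs were those of Gpc5, and the other 7 markers summed to 26.3 CPM (21.2 to 32.2), against 39.6 (23.8 to 61.9) in the cortical excitatory-like nuclei. In the full order of classes, the steps from cortical excitatory-like to precursor-like, from CA3-like over microglia-like to thalamic-like, and from dentate granule-like to inhibitory-like nuclei did not exceed counting error. Of the 94 inhibitory-like UMIs 62 were in 1 nucleus, and the median was 0. The place of the inhibitory-like class above the CA1-like class rests largely on that nucleus. The cortical excitatory-like class rests on 29 nuclei and the CA3-like class on 34.

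Outside the neurons, Slc1a2 was next highest in the endothelial-like nuclei, at 2265 CPM (2122 to 2416) over 57 nuclei. The median was 3 UMIs and the highest count 161, and the 14 deepest nuclei held 683 of the 923 UMIs. Astrocyte markers moved with it: all 8 were detected in the 42 endothelial-like nuclei with a Slc1a2 UMI, at 2052 CPM, against 5 of 8 and 148 in the 15 without, where Ntsr2, Gpc5 and Plpp3 were at 0. The 42 and 15 nuclei were not matched for depth, which bears on the number of markers detected. Oligodendrocyte precursor-like nuclei held 779 CPM of Slc1a2, with 3483 of the astrocyte markers, of which Gpc5 made up 2909. Of their 129 Slc1a2 UMIs 57 were in 1 nucleus, and the median was 2. The part of astrocyte RNA in these levels was not tested.

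Slc1a3 set astrocyte-like nuclei further apart from neurons than Slc1a2 did, and among the neurons it was concentrated in dentate granule-like nuclei. The gene lies at chr15:8634124-8710764 on the minus strand (76.6 kb, 88.9% intronic) and reached 2368 CPM (2269 to 2471) in astrocyte-like nuclei and 25.6 (22.9 to 28.6) in neuron-like nuclei. It shares its strand with the annotation Gm37310, whose type is uncertain, so reads in the overlap could belong to either. A UMI was present in 122 of 124 astrocyte-like nuclei (98.4%, 94.3 to 99.8) and in 169 of 788 neuron-like nuclei (21.4%, 18.6 to 24.5), or 63.7% and 1.52% after thinning. Dentate granule-like nuclei were at 48.8 CPM (43.2 to 54.9) against 4.80 in CA1-like nuclei, a ratio of 10.2 (6.24 to 17.7). CA3-, thalamic- and cortical excitatory-like nuclei held 2.78, 2.16 and 2.08, and inhibitory-like nuclei 28.4, with 13 of 16 UMIs in 1 nucleus. The first 3 rest on 2, 3 and 1 UMIs, and neither those classes nor the CA1-like class could be ordered among themselves at this depth.

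In the dentate granule-like class 152 of 426 nuclei (35.7%, 31.1 to 40.4) had a Slc1a3 UMI at a median depth of 11382 UMIs, against 10 of 186 CA1-like nuclei (5.38%, 2.61 to 9.66) at 18644. Thinned to 500 UMIs the shares were 2.11% (0.970 to 3.97) and 1.08% (0.131 to 3.83), which this depth does not separate. The clusters that made up the dentate granule-like class had overlapping intervals, at 44.3 (37.2 to 52.3) and 54.1 CPM (45.6 to 63.8) of Slc1a3 in 219 and 207 nuclei. The level of the whole class lay below the 92.5 CPM (72.9 to 116) of oligodendrocyte-like nuclei, of which 20.8% had a Slc1a3 UMI, 3.81% after thinning. All 8 astrocyte markers were detected in nuclei with and in nuclei without a Slc1a3 UMI, and summed to 125 and 31.8 CPM. Gja1 per Slc1a3 UMI was 0.1004 (0.0655 to 0.148) in the dentate granule-like class and 0.372 (0.343 to 0.404) in the astrocyte-like class. The part of astrocyte RNA was not tested beyond these values.

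The balance of the glial transporters differed between classes. Astrocyte-like nuclei carried 2.94 Slc1a2 UMIs per Slc1a3 UMI (2.79 to 3.09), dentate granule-like nuclei 3.80 (3.33 to 4.35) and CA1-like nuclei 15.4 (9.41 to 26.8). In thalamic-, CA3- and cortical excitatory-like nuclei the ratio was 134, 180 and 432, on 3, 2 and 1 Slc1a3 UMIs, and the lower bounds of these ratios were 45.5, 49.5 and 77.1. Gene length cancels when this ratio is set between classes with like shares of intronic reads, which were not measured. The excess of Slc1a2 over Slc1a3 was greater in these neurons than in astrocyte-like nuclei by more than counting error. Endothelial-like nuclei, at 4.55 (3.90 to 5.32), were nearer the astrocyte-like value.

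**Figure D2:**
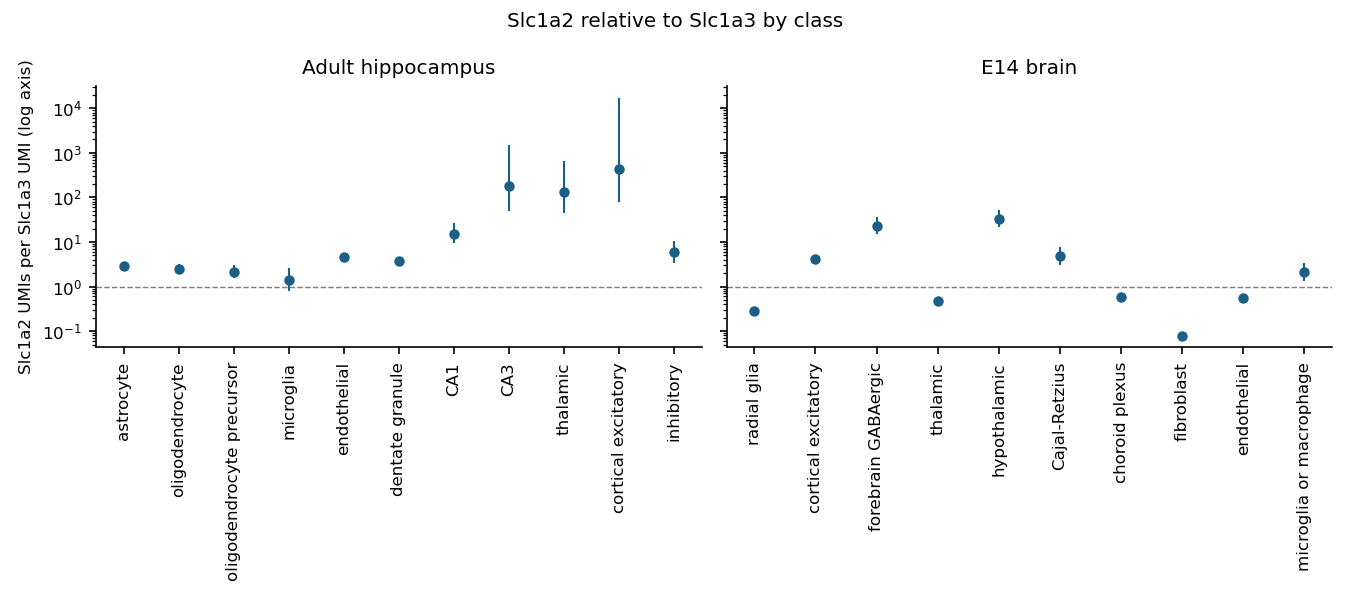
Slc1a2 UMIs per Slc1a3 UMI (vertical log axis) in each named class of the adult hippocampus (left) and the E14 brain (right), as points with exact binomial 95% intervals and a dashed line at 1. Every adult class lies above 1 as a point, from 1.43 in microglia-like nuclei to 432 in cortical excitatory-like nuclei, whereas radial glia-, thalamic-, choroid plexus-, fibroblast- and endothelial-like nuclei of the E14 brain lie below 1.

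Slc1a1, the transporter best known from neurons, had the reverse distribution. It lies at chr19:28835049-28913960 on the plus strand (78.9 kb, 89.5% intronic) and overlaps genes on the opposite strand only. Neuron-like nuclei held 155 CPM (148 to 162) and astrocyte-like nuclei 45.4 (32.6 to 61.6). A UMI was found in 636 of 788 neuron-like nuclei (80.7%, 77.8 to 83.4) and 18 of 124 astrocyte-like nuclei (14.5%, 8.84 to 22.0), or 9.01% and 1.61% after thinning to 500 UMIs. Within the astrocyte-like class the 31 deepest nuclei held 33 of the 41 UMIs and the 31 shallowest held 1, at a 6.16-fold difference in mean depth. The ratio of astrocyte-like to neuron-like levels fell to 0.112 in a clustering on 4000 variable genes.

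Slc1a1 was not limited to neurons. The highest levels were in oligodendrocyte precursor-like nuclei, at 272 CPM (198 to 363), and in endothelial-like nuclei, at 218 (175 to 269), and 21 of the 27 precursor-like nuclei had a UMI. In the endothelial-like class the 14 shallowest nuclei held 23 of the 89 UMIs, at 768 CPM, and the 14 deepest were at 157. CA1-, thalamic- and dentate granule-like nuclei followed at 176, 174 and 157, and CA3-, inhibitory- and cortical excitatory-like nuclei at 97.4, 92.2 and 75.1. No step in this order from the precursor-like down to the dentate granule-like class exceeded counting error between neighbours. Over the whole span, however, the precursor-like level was 1.76-fold that of the neuron-like nuclei (1.28 to 2.36), and the cortical excitatory-like level was 0.426-fold that of the CA1-like nuclei (0.296 to 0.596). Oligodendrocyte-like nuclei held 36.5, and microglia-like nuclei had 0 UMIs, which allows up to 34.6 CPM.

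Glul, the enzyme downstream of glutamate uptake in astrocytes, was the least astrocyte-bound of the glial genes outside the neurons. The gene is short, at chr1:153899944-153909723 on the plus strand (9.8 kb, 66.0% intronic), and holds the microRNA gene Mir8114 on the same strand. Its level was 687 CPM (634 to 744) in astrocyte-like nuclei, 525 (457 to 601) in endothelial-like nuclei and 516 (468 to 568) in oligodendrocyte-like nuclei. Neuronal classes held between 7.62 (CA1-like) and 42.6 (inhibitory-like), the last with 12 of its 24 UMIs in 1 nucleus. Glul was present in 165 of 236 oligodendrocyte-like nuclei (69.9%, 63.6 to 75.7) and 113 of 124 astrocyte-like nuclei (91.1%, 84.7 to 95.5), and the thinned shares were 27.1% (21.5 to 33.3) and 24.2% (17.0 to 32.7), against 0.761% in neuron-like nuclei. The oligodendrocyte-like to astrocyte-like ratio of levels was 0.751 (0.662 to 0.851) for Glul and 0.0329, 0.0391, 0.0169, 0.0152 and 0.0102 for Slc1a2, Slc1a3, Aqp4, Gja1 and Gjb6. The Glul interval lay apart from the intervals of those 5 genes.

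Aqp4, at chr18:15389496-15410982 on the minus strand (21.5 kb, 71.0% intronic), was measured at 360 CPM (322 to 401) in astrocyte-like nuclei and 3.47 in neuron-like nuclei. Of the 124 astrocyte-like nuclei 90 had a UMI (72.6%, 63.8 to 80.2), against 25 of 788 neuron-like nuclei (3.17%, 2.06 to 4.65), and the thinned shares were 15.3% and 0.127%. Endothelial-like nuclei held 123 (91.1 to 162), precursor-like nuclei 96.6 and microglia-like nuclei 46.2, the last from 4 UMIs in 1 nucleus. CA3-like nuclei had 0 UMIs, which allows up to 4.18 CPM. The fall from the astrocyte-like to the endothelial-like level was larger than counting error, at 2.93-fold (2.17 to 4.03), and the next step down was not.

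As points, the connexins had the highest ratios between astrocyte-like and neuron-like nuclei among the 7 genes, although the Gjb6 interval (83.7 to 370) overlapped that of Aqp4 (75.4 to 146). Gja1, at chr10:56377330-56402513 on the plus strand (25.2 kb, 59.3% intronic), held 881 CPM (821 to 945) in astrocyte-like and 3.63 in neuron-like nuclei. Gjb6, at chr14:57123303-57133611 on the minus strand (10.3 kb, 74.1% intronic), held 120 (98.1 to 144) and 0.725. A Gja1 UMI was present in 116 astrocyte-like nuclei (93.5%, 87.7 to 97.2) and 25 neuron-like nuclei (3.17%), and a Gjb6 UMI in 62 (50.0%, 40.9 to 59.1) and 6 (0.761%, 0.280 to 1.65). Thinned to 500 UMIs, 36.3% and 6.45% of astrocyte-like nuclei kept a Gja1 and a Gjb6 UMI, against 0.381% and 0% of neuron-like nuclei, where the limit of 3 counts in 788 nuclei is 0.381%. Endothelial-like nuclei held 290 CPM of Gja1 and 14.7 of Gjb6, ratios to the astrocyte-like level of 0.329 (0.269 to 0.399) and 0.123 (0.0442 to 0.277).

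Most astrocyte-like nuclei had a UMI of at least 5 of the 6 glial genes. All 6 had a UMI in 48 of the 124 nuclei, 5 in 47, 4 in 21, and 3 or 2 in 4 nuclei each. Every nucleus with a Gjb6 UMI also had a Gja1 UMI: 62 nuclei had both, 54 had Gja1 alone, 8 had neither and 0 had Gjb6 alone. With Gja1 in 93.5% of the nuclei, few nuclei could have had Gjb6 without it. The Gja1 to Gjb6 ratio was 7.37 UMIs per UMI (6.02 to 9.10).

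Astrocyte-like nuclei fell into a main cluster of 99, a smaller cluster of 21 led by Slc6a11, Lgr6, Etnppl and Agt, and 4 nuclei of a cluster made up mostly of Malat1-poor droplets. Slc1a2 was 7455 CPM (7265 to 7649) in the main and 3168 (2843 to 3520) in the smaller cluster. Slc1a3 was 2511 and 1373, and Glul 709 and 449. The intervals of the other genes overlapped between the clusters, with Gja1 at 883 (819 to 952) and 916 (745 to 1114), Aqp4 at 372 (330 to 417) and 293 (200 to 414), and Gjb6 at 111 (88.7 to 137) and 192 (119 to 294). The smaller cluster thus held less transporter and glutamine synthetase RNA per UMI at a level of Gja1 that did not differ beyond counting error. Clusters were drawn from the same nuclei, so these values are a description.

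Other genes of the same processes were read from lists chosen with earlier results of these data known. Among genes of glutamate and glutamine handling, 12 of 15 found by symbol were compared, 4 of them higher and 3 lower in astrocyte-like than in neuron-like nuclei, with a median ratio of 0.853. Over all 15406 genes compared, 19.3% were higher and 15.9% lower, at a median of 1.08. The 4 were the glutamine transporter Slc38a3 (206-fold), the cystine-glutamate exchanger Slc7a11 (148-fold), glutamate dehydrogenase Glud1 (10.4-fold) and the neutral amino acid transporter Slc1a4 (6.42-fold). The lower genes included the aspartate aminotransferase Got1 (0.487). Of 11 genes of potassium and bicarbonate transport and of Aqp4 anchoring, 9 were higher, with a median of 12.3. These included the potassium channel Kcnj10 (68.2-fold), Mlc1 (84.5-fold) and the bicarbonate cotransporter Slc4a4 (4.32-fold), while dystroglycan Dag1 (1.496) and dystrophin Dmd (0.768) passed neither limit. Of 10 other connexins and junction partners only 4 had enough UMIs, of which Gjc3 was higher (9.28-fold) and Gjc1 lower (0.208, with an interval of 0.00519 to 1.20 on 1 astrocyte-like UMI), at a median of 1.07. Of 6 transcripts kept in the nucleus, Neat1 was higher (26.6-fold) and 4, among them Meg3 (0.0749) and Rian (0.101), were lower, one of them on 1 astrocyte-like UMI, at a median of 0.296, while Malat1 stood at 0.913.

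Across the 11 adult classes, the genes whose levels ran most like each of the 7 were ranked by Pearson correlation of log2(CPM + 1) among 9690 genes. Classes share a library and differ in depth, so the correlations are a description. For Slc1a3 the nearest were Pla2g7, Apoe and Plpp3 (r = 0.956, 0.9501 and 0.941), and for Gja1 they were Mt1, Aldoc and Clu (0.980, 0.977 and 0.976). Glul was nearest to Cd81 (0.991), Aqp4 to Gpr37l1 (0.979) and Gjb6 to Gm6145 (0.966). Slc1a2 had the weakest nearest neighbour, Rgs20 (0.877), and Slc1a1 was nearest to Dus4l (0.974), at 6.64 CPM in astrocyte-like and 19.8 in CA1-like nuclei.

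Malat1 is a long noncoding RNA kept in the nucleus, and 317 of the 1609 adult droplets had it at under 1.5% of their UMIs. These Malat1-poor droplets had a median of 908 UMIs and 1.73% mitochondrial UMIs, against 5761 and 0.398% in the astrocyte-like nuclei. The astrocyte markers, 8 of 8 detected, summed to 1759 CPM in them and the 8 oligodendrocyte markers to 3081, against 8837 and 1332 in astrocyte-like nuclei. Gpc5 made up 171 of the 1759 CPM and 5545 of the 8837. The other 7 astrocyte markers summed to 3291 in the astrocyte-like nuclei. The glial genes were abundant there: Slc1a2 held 3833 CPM (3668 to 4004), Glul 655 (587 to 728), Slc1a3 640 (573 to 712), Gja1 270, Aqp4 185 and Gjb6 32.4. Slc1a2 had a UMI in 257 of the 317 droplets (81.1%, 76.3 to 85.2), and 65.6% kept one at 500 UMIs, against 10.7% of the neuron-like nuclei.

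Set against astrocyte-like nuclei, none of the 7 genes was called higher in the Malat1-poor droplets, where 24.9% of the 9756 genes compared were, and 3 were called lower, where 28.4% were. The 3 were Slc1a3, at a ratio of 0.270 (0.240 to 0.303), Gja1, at 0.307 (0.255 to 0.367), and Gjb6, at 0.271 (0.152 to 0.454). Slc1a2 (0.551), Aqp4 (0.513) and Slc1a1 (1.64) passed neither limit, and Glul stood at 0.952 (0.832 to 1.09), an interval that holds 1. When droplets with over 1% mitochondrial UMIs were left out, Glul fell to 0.391 (0.262 to 0.564) and Slc1a2 to 0.277 (0.244 to 0.314), past the 2-fold limit. Slc1a1 rose to 2.85 (1.62 to 4.90) there and to 4.27 (2.23 to 8.73) in a clustering on 4000 variable genes, so that 1 gene was called higher in each. The count of lower genes was 5 at a Malat1 limit of 2% and in a clustering on 4000 variable genes, 6 under the mitochondrial limit and 0 at a 4-fold limit. The shares of all genes called under these alternatives are not given here, so these counts have no background beside them. In the list of potassium, bicarbonate and anchoring genes 7 of 11 were lower, with Dtna at 0.0992 and Slc4a4 at 0.213, at a median of 0.465. Of 10 glutamate handling genes compared, the aspartate aminotransferases Got1 (5.97-fold) and Got2 (3.44-fold) were higher and the transporters Slc1a4 (0.271), Slc38a3 (0.160) and Slc7a11 (0.0863) lower, at a median of 1.26. Among nuclear transcripts Malat1, which the rule used, stood at 0.0780, Neat1 was lower (0.131) and Rian higher (3.53-fold). The median ratio of the 7 genes was 0.513, against 0.973 over all genes compared.

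**Figure D3:**
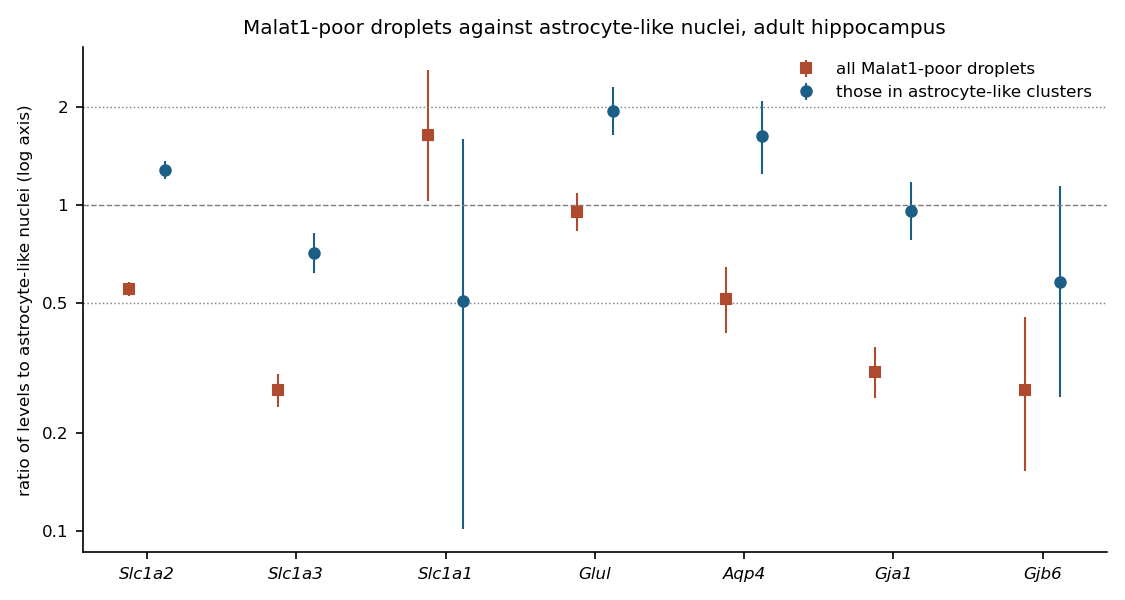
Ratio of each gene's level in Malat1-poor droplets to its level in astrocyte-like nuclei (vertical log axis), for all 317 Malat1-poor droplets (squares) and for the 75 of them in astrocyte-like clusters (circles), with exact binomial 95% intervals; the dashed line marks 1 and the dotted lines the 2-fold limits. Slc1a3, Gja1 and Gjb6 lie under the lower dotted line among the squares, and no circle lies outside the dotted lines.

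Of the Malat1-poor droplets 75 fell in astrocyte-like clusters, 53 in a thalamic-like cluster, 179 in an unnamed cluster and 10 elsewhere. The 75 had a median of 1156 UMIs and 2.71% mitochondrial UMIs. In them the astrocyte markers summed to 4442 and the oligodendrocyte markers to 4496 CPM, with 8 of 8 detected in each list. Gpc5 made up 447 of the 4442 CPM. In the astrocyte-like nuclei Gpc5 held 5545 CPM and the other 7 astrocyte markers summed to 3291. Against astrocyte-like nuclei, 0 of the 7 genes were called higher, beside 19.7% of the 8464 genes compared, and 0 lower, beside 30.8%. Glul came nearest to the limit at 1.95 (1.64 to 2.31), followed by Aqp4 at 1.63 (1.25 to 2.09) and Slc1a2 at 1.28 (1.21 to 1.37). Of the 76 Aqp4 UMIs, however, 18 were in 2 droplets, and the other 73 droplets held 467 CPM (355 to 604), an interval that overlaps that of the astrocyte-like nuclei, 360 (322 to 401). Slc1a3, at 0.712 (0.617 to 0.819), lay below 1, and the interval of Gja1, at 0.961 (0.780 to 1.17), holds 1. These ratios depend on the setting: with the droplets of highest doublet score removed before clustering, which put 86 Malat1-poor droplets in astrocyte-like clusters, Slc1a2 turned to 0.900 (0.849 to 0.954), Aqp4 fell to 1.03 (0.799 to 1.32), Gja1 to 0.609 (0.499 to 0.739) and Slc1a3 to 0.469 (0.409 to 0.535), and 3 of the 7 genes were then called lower. At Malat1 limits of 1% and 2% Glul passed the 2-fold limit at 2.05 and 2.02. For these alternatives too, the shares of all genes called are not given here. Of the potassium, bicarbonate and anchoring genes 4 of 11 were lower, among them Dtna (0.141) and Slc4a4 (0.470), while Mlc1 (1.80) passed neither limit.

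The balance of Slc1a2 and Slc1a3 differed within the Malat1-poor droplets of astrocyte-like clusters, which carried 5.30 Slc1a2 UMIs per Slc1a3 UMI (4.58 to 6.15) against 2.94 (2.79 to 3.09) in the nuclei. In the unnamed Malat1-poor cluster, which had 809 UMIs at the median, the ratio was 9.85 (7.65 to 12.9) and Slc1a2 held 2420 CPM. Malat1-poor thalamic-like droplets held 1495 CPM of Slc1a2 and 239 of Slc1a3, against 290 and 2.16 in thalamic-like nuclei. The Slc1a3 ratio, 110 (33.4 to 575), rests on 3 UMIs of thalamic-like nuclei. The astrocyte markers of the droplets summed to 966 against 133, of which Gpc5 made up 89.4 in the nuclei, with Sox9 at 0 in both. The astrocyte-like set of 75 depends on the settings: with 4000 variable genes, a minimum of 1000 UMIs or a maximum of 1% mitochondrial UMIs, 1, 2 and 1 Malat1-poor droplets were left in astrocyte-like clusters. The share of RNA from outside the nucleus in these values was not tested.

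At the 1.5% limit itself, the astrocyte-like clusters held 3 droplets with Malat1 between 1% and 1.5% and 6 between 1.5% and 2%. Just inside, Slc1a2 was 9891, Slc1a3 1425, Glul 671, Aqp4 1844 and Gja1 1509 CPM. Just outside, they were 8399, 3829, 1400, 124 and 865. Over clusters of any name, Slc1a2 was 3307 CPM in the 24 droplets just inside and 1082 in the 46 just outside.

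In the E14 brain 913 nuclei were radial glia-like, in clusters of 468 and 445. The naming rule counted 7 and 6 of the 8 radial glia markers in them, with 0 among the leading genes of either cluster. The 8 markers, each with a UMI, summed to 878 CPM against 243 in the other 8123 nuclei. That contrast follows in part from the naming, which used these markers. Slc1a3 was called higher in the radial glia-like nuclei, as were 10.5% of the 19984 genes compared. Of the 7 genes 2 were called lower, as were 18% of the genes. Slc1a3 stood at 264 CPM (251 to 277) against 124, a ratio of 2.13 (2.02 to 2.26). Slc1a1, at 7.17 against 30.4 (ratio 0.236, 0.170 to 0.319), and Gjb6, at 1.00 against 4.48 (0.223, 0.0812 to 0.494), were lower. Among the other nuclei, however, the 388 fibroblast-like ones held 212 of the 237 Gjb6 and 1644 of the 2674 Gja1 UMIs. Besides them, only endothelial-like (2.02 CPM) and microglia- or macrophage-like nuclei (1.97) lay above the radial glia-like Gjb6 level, on 5 and 1 UMIs. Unnamed nuclei held 0.383. The Gjb6 call thus rests on the fibroblast-like nuclei. Slc1a2 stood at 74.4 against 147 (0.507, 0.460 to 0.558), Glul at 10.7 against 15.6 (0.685), Gja1 at 56.4 against 50.5 (1.12, 0.993 to 1.25) and Aqp4 at 8 UMIs against 47 (1.502, 0.613 to 3.21). When only the other named nuclei were set against them, the Slc1a3 ratio was 1.25 (1.18 to 1.32) and Gja1 turned to 0.594, and 54.2% of the E14 nuclei were in unnamed clusters.

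**Figure D4:**
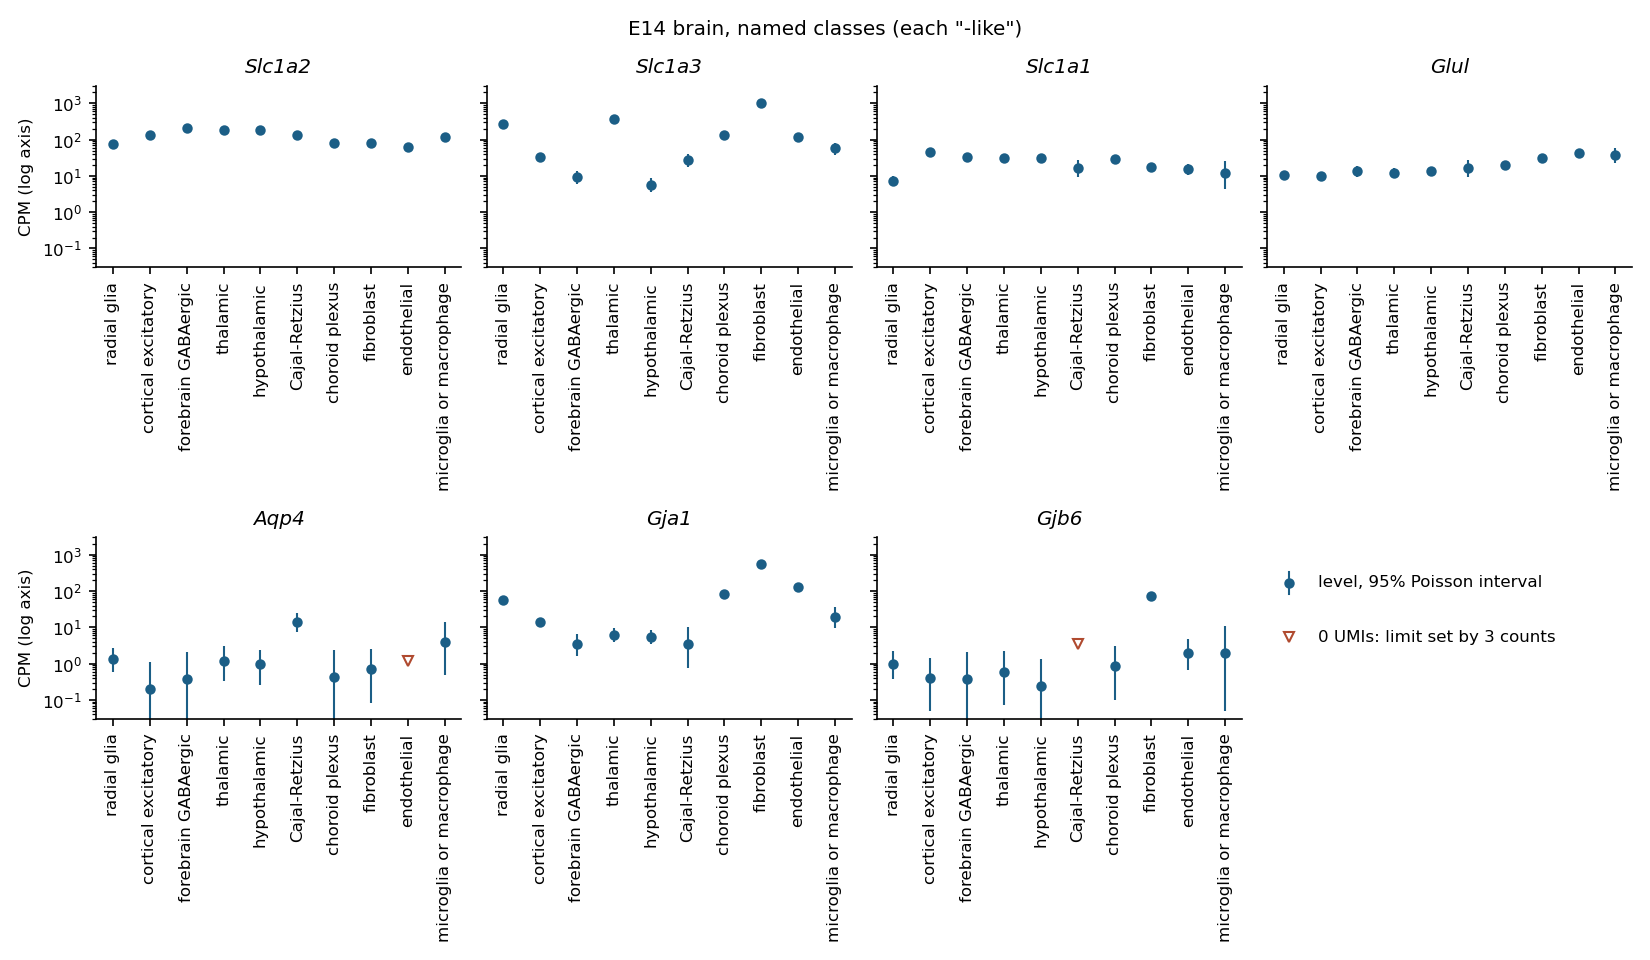
Level of each gene in CPM (UMIs per 1000000 UMIs of the class, vertical log axis) in the 10 named classes of the E14 brain (horizontal axis), as points with exact Poisson 95% intervals; open triangles mark classes with 0 UMIs at the limit that 3 counts set. Fibroblast-like nuclei hold the highest Slc1a3, Gja1 and Gjb6 points, at 1047, 574 and 74.0, and radial glia-like nuclei the lowest Slc1a1 point, at 7.17.

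Slc1a3 had a UMI in 457 of 913 radial glia-like nuclei (50.1%, 46.8 to 53.3) at a median depth of 3789, and in 20 of 659 hypothalamic-like nuclei (3.03%, 1.86 to 4.65) at 4835. Thinned to 500 UMIs the shares were 12.3% and 0.607%. The radial glia-like clusters had overlapping intervals of Slc1a3, at 280 (262 to 299) and 246 CPM (229 to 265), and differed in Gja1, at 76.1 (66.7 to 86.4) in the first and 35.0 (28.6 to 42.6) in the second, and in Slc1a2, at 49.4 and 101. Of the 6 glial genes 1 radial glia-like nucleus had 5, 12 had 4, and 329 had 0. An unnamed cluster of 504 nuclei with a median of 12724 UMIs, which shared leading genes with the first radial glia-like cluster, held 129 CPM of Slc1a3 and 23.2 of Gja1. This cluster was counted among the other nuclei in the comparison above, with 1237 of their 6541 Slc1a3 UMIs.

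Slc1a3 was not highest in radial glia-like nuclei. Fibroblast-like nuclei held 1047 CPM (1010 to 1085) in 388 nuclei, 3.97-fold the radial glia-like level (3.73 to 4.22), and thalamic-like nuclei held 371 (351 to 393) in 550 nuclei. Choroid plexus- and endothelial-like nuclei held 135 and 115, cortical excitatory-like nuclei 33.2, forebrain GABAergic-like nuclei 9.20 and hypothalamic-like nuclei 5.71. Thalamic-like and hypothalamic-like neurons, at nearly equal median depths of 4823.5 and 4835 UMIs, differed 65.1-fold (43.5 to 102), while their Slc1a2 ratio was 0.966 (0.867 to 1.08). In the thalamic-like class 266 of 550 nuclei (48.4%, 44.1 to 52.6) had a Slc1a3 UMI, 16.2% after thinning, and the radial glia markers summed to 119 CPM in nuclei with and 101 in nuclei without it, 8 of 8 detected in each. Gja1 per Slc1a3 UMI was 0.0170 in thalamic-like and 0.214 in radial glia-like nuclei.

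Slc1a2 at E14 was higher in neuronal than in radial glia-like nuclei. Forebrain GABAergic-, hypothalamic- and thalamic-like nuclei held 208, 186 and 180 CPM, and cortical excitatory- and Cajal-Retzius-like nuclei 136 and 131. The forebrain GABAergic-like name rests on 4 markers, with 0 of them among the leading genes of its cluster. A cluster of 456 nuclei with all 8 markers of that list stayed unnamed and is not part of this class. Radial glia-like nuclei held 74.4 (67.6 to 81.6), a level that neighbours in the order, choroid plexus-like at 78.7 and endothelial-like at 63.0, matched within counting error. The hypothalamic-like level was 2.50-fold (2.23 to 2.82) and the cortical excitatory-like level 1.83-fold (1.62 to 2.07) the radial glia-like level. There were 0.282 Slc1a2 UMIs per Slc1a3 UMI (0.253 to 0.313) in radial glia-like nuclei, 0.0794 in fibroblast-like, 0.484 in thalamic-like and 32.6 in hypothalamic-like nuclei. Slc1a1 was lowest in radial glia-like nuclei and highest in cortical excitatory-like nuclei, at 46.0 CPM, 6.42-fold more (4.62 to 9.11), although the 11.8 CPM of microglia- or macrophage-like nuclei, on 6 UMIs, did not differ from the radial glia-like level beyond counting error.

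The connexins at E14 were led by fibroblast-like nuclei. Gja1 held 574 CPM (547 to 602) there, 10.2-fold the radial glia-like level (9.05 to 11.5), with a UMI in 304 of 388 nuclei (78.4%, 73.9 to 82.3) at a median depth of 4058 UMIs, against 22 of 659 hypothalamic-like nuclei (3.34%) at 4835. Thinned to 500 UMIs the shares were 25.8% and 0.455%. Endothelial-, choroid plexus- and radial glia-like nuclei followed at 128, 82.5 and 56.4, each step larger than counting error. Gjb6 held 74.0 (64.4 to 84.7) in fibroblast-like nuclei, which had 212 of the 243 Gjb6 UMIs of the E14 library, in 94 nuclei. Of these 94 nuclei 88 also had a Gja1 UMI. The Gja1 to Gjb6 ratio was 7.75 UMIs per UMI (6.72 to 8.99) in fibroblast-like nuclei and 56.3 (25.6 to 155) in radial glia-like nuclei.

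Aqp4 was sparse in the E14 library, with 55 UMIs in 45 of 9036 nuclei, of which 12 were in the 138 Cajal-Retzius-like nuclei (14.3 CPM, 7.38 to 25.0). Endothelial-like nuclei had 0 UMIs, which allows up to 1.21 CPM. Glul was low throughout, from 10.0 CPM in cortical excitatory-like and 10.7 in radial glia-like nuclei to 43.6 (35.8 to 52.7) in endothelial-like nuclei. Among the listed genes, the astrocyte potassium channel Kcnj10 (10.96-fold), Mlc1 (6.94-fold) and the adhesion molecule Hepacam (2.63-fold) were higher in radial glia-like than in other nuclei, 3 of 10 compared, with 0 lower. Among the glutamate handling genes Slc1a5 was higher (2.45-fold) and Slc38a5 and Slc7a11 were lower, of 14 compared, which is near the 10.5% and 18% over all genes. Among the other connexins Gjc1 was higher (2.08-fold) and Gja4, Gja5, Gjb2 and Gjd2 were lower, of 7 compared, with 2 or 3 radial glia-like UMIs for the first 3 and an interval of 0.0981 to 1.51 for Gja5. The median ratios of these 3 lists were 1.19, 0.864 and 0.490, against 1.03 over all genes compared, and the median of the 7 genes was 0.685. Of the 6 nuclear transcripts 3 were lower, at a median of 0.591.

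Age and library cannot be told apart here, and the libraries were counted with different software versions, so adult and E14 levels are set side by side only. Slc1a3 stood at 2368 CPM in adult astrocyte-like and 264 in E14 radial glia-like nuclei, Slc1a2 at 6952 and 74.4, Glul at 687 and 10.7, Aqp4 at 360 and 1.33, Gja1 at 881 and 56.4, Gjb6 at 120 and 1.00, and Slc1a1 at 45.4 and 7.17. In thalamic-like neurons Slc1a3 stood at 2.16 in the adult and 371 at E14, and Slc1a2 at 290 and 180.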

How the data were processed

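Droplet count tables of nuclei from the adult hippocampus and from the E14 brain were analysed, each of 1 library. The authors made the counts with Cell Ranger (6.1.2 for the adult and 7.0.1 for the E14 table, per the file headers) on mm10 with intronic reads included, and deposited them as whole-number UMI counts per gene and barcode. The methods name background removal with CellBender for the embryo, whereas the deposited E14 header is that of Cell Ranger, so free RNA is taken as not removed in either table. Counting intronic reads gives long genes more UMIs, so levels were compared within a gene. Such a ratio can still depend on gene length where the sets compared, such as Malat1-poor droplets and nuclei, differ in their share of intronic reads. That share was not measured.

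Barcodes with at least 500 UMIs and at most 5% mitochondrial UMIs were kept, 1609 of 1661 and 9036 of 9037. They were normalised to 10000 UMIs and clustered in Seurat 5.3.0 (R 4.3.3) on 2000 variable genes, 30 components and resolution 0.8, with the 7 genes left out. A cluster was named from a list of 8 markers when at least 4 were detected in over 10% of its droplets at a 2-fold excess and its leading genes did not go against the name, and 1 of 17 adult and 11 of 23 E14 clusters stayed unnamed. Adult droplets with Malat1 under 1.5% of UMIs were set apart from every named class. Doublets were scored with Scrublet in scanpy 1.11.5 and left in place: the automatic threshold marked 7 adult and 0 E14 barcodes, so the scores were used only in an alternative that removed the 22 and 653 highest. Sums and intervals were computed with Python 3.11.15, numpy 2.4.6, scipy 1.17.1 and pandas 2.3.3, figures were drawn with matplotlib 3.10.9, and the interval code was tested on simulated data. No test was made, since each group is 1 library.

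Loci came from the GENCODE annotation of GRCm38 and promoters from a RefSeq table. The genes named in the text are the 7 genes, members of 4 lists of related genes, the markers, and the 3 genes most like each of the 7 among genes with at least 200 UMIs. The 7 genes and all lists were chosen with earlier results of these data known. Positions of nuclei and the other tissues of the study were not used here, some listed genes are not reported here, and 0 columns of other samples were used. The alternatives changed the filters, the clustering, the naming rule, the Malat1 limit, the fold, the denominator and the thinning depth; those added after seeing the data were the number of Malat1-poor droplets under the other filters, the ratios under other Malat1 limits and denominators, an offset of 1 in place of 10 CPM in ranking leading genes, the named E14 nuclei as background and the omission of an astrocyte-like cluster.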

Additional observations from a re-analysis of the deposited data

How the results depend on the processing

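Each tissue has 1 library, so no setting tests reproducibility. No paired analysis was possible because each tissue has 1 library. None of the ratios of the 7 genes that passed the 2-fold limit changed direction under the alternatives run. The number of astrocyte-like nuclei ran from 94 to 127. Under other settings 260 ratios stayed within their intervals and 41 moved out. Of the shares, 13 stayed the same and 15 moved. Of the counts of the 7 genes called, 76 stayed the same and 18 moved.

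The count of genes called in the Malat1-poor droplets against astrocyte-like nuclei, 0 higher and 3 lower, was 1 and 5 with 4000 variable genes, 1 and 6 with at most 1% mitochondrial UMIs, and 5 lower at a Malat1 limit of 2%. The 317 droplets fell to 142 with a minimum of 1000 UMIs and to 100 with at most 1% mitochondrial UMIs. Among Malat1-poor droplets of astrocyte-like clusters, 0 higher and 0 lower became 1 higher and 1 lower at Malat1 limits of 1% and 2%, 2 lower with the 7 genes kept for clustering, and 3 lower without the highest Scrublet scores. It became 1 lower with a denominator free of mitochondrial genes and Malat1, with an offset of 1 CPM in place of 10 in ranking leading genes, and without astrocyte-like cluster 16. In the last 3 the gene was Slc1a1, on 3 UMIs. At 4-fold, 0 genes were lower in astrocyte-like than in neuron-like nuclei, 0 lower in the Malat1-poor droplets and 0 higher in radial glia-like nuclei, and 0 were higher there against the other named E14 nuclei only. With 4000 variable genes, a minimum of 1000 UMIs and at most 1% mitochondrial UMIs, the astrocyte-like Malat1-poor set held 1, 2 and 1 droplets and gave no value. The counts under these alternatives are given without the shares of all genes called, so they have no background beside them.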
